A study of Mus musculus with 4 samples.

Results

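The genes examined were 10 genes of plasmacytoid dendritic cells (pDCs), read in CD24+ emergency progenitors (EPs) of the mouse spleen. They were chosen by gene symbol: the transcription factors Tcf4, Spib, Runx2 and Bcl11a, the surface and secretory markers Siglech, Bst2, Ly6d, Ccr9 and Klk1, and Cox6a2. The first 9 were taken for their known role in pDCs, whereas Cox6a2 was chosen from its own counts in these libraries, being near absent in WT and counted in TopBP1 cKO. The genes and the lists used further on were all chosen with earlier results of these data known. All 10 symbols were found among the 40213 symbols listed, and each had a count in at least 1 library, as did 19815 genes in all. The libraries were 4, with 2 from WT mice (TopBP1 fl/fl littermates) and 2 labelled TopBP1 cKO (TopBP1 fl/fl with CD11c-cre; cKO-labelled below). All animals carried the floxed alleles and had received 10 μg of Flt3L-Ig i.p. on days 0 and 3, before the EPs were sorted from splenocytes on day 9. CD11c-cre drives recombination in cells that express CD11c, and the WT littermates are described without it, so effects of the transgene and of the loss of TopBP1 cannot be told apart in these groups. The EP gate was CD11c+CD117+ and, by the label, CD24+. A BST2 gate is stated for the pre-DCs and cDCs of the study and not for the EPs. No source used here says whether the replicates are separate animals or pools, so P values measure the spread between these libraries, which may be technical.

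Background on these genes helps to read them. pDCs are the dendritic cells that sense viral nucleic acids in endosomes through TLR7 and TLR9 and release type I interferon, and they share precursors with conventional dendritic cells (cDCs). Tcf4 encodes E2-2, the E protein that sets and keeps pDC identity by binding E-box sequences, and the inhibitor Id2 opposes E proteins on the way to cDC1s. Spib encodes an Ets factor close to PU.1, Runx2 encodes a factor that controls the exit of pDCs from the bone marrow, and Bcl11a encodes a zinc finger protein needed for pDCs and B cells. Siglech is a receptor used as a pDC marker in the mouse, Bst2 encodes the antibody target PDCA-1 and is also induced by interferon in many cells, Ly6d marks lymphoid-biased precursors, Ccr9 encodes the receptor for CCL25, Klk1 encodes tissue kallikrein, and Cox6a2 encodes the heart and muscle isoform of subunit VIa of cytochrome c oxidase.

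The sequences shown are those on which the description of these genes turns. Cox6a2 is shown first because its count was near 0 in WT, which makes the identity of the counted transcript matter. Its gene spans chr7:128205435-128206387 on the minus strand of GRCm38, and its only listed transcript has 680 bases in GENCODE M21, of which 294 are coding. The coding sequence is given 5′ to 3′ with the start and stop codons in capitals.
Cox6a2 coding sequence: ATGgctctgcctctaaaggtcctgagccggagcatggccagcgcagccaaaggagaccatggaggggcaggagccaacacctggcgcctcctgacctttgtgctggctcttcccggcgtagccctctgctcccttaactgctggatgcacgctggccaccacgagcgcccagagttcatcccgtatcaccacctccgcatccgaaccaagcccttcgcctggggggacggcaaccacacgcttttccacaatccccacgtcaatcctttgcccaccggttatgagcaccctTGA
It was identical to the coding sequence of Cox6a1, the isoform of most other tissues, in 62.6% of 294 aligned columns, and the coding sequences had 0 stretches of 31 bases in common. In the GENCODE transcripts, each read on its own strand, 0 of the 650 stretches of 31 bases of Cox6a2 occurred in a transcript of another gene. The opposite strand was not searched, so an overlap with a gene there could not be found in this way. RefSeq places the end of Itgad, on the opposite strand, over the end of Cox6a2, and whether the counting used strand is not given in the sources used here.

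Upstream windows are shown for Spib, Siglech and Bst2, as the member with the largest difference after Cox6a2 and Ly6d, the surface marker most used for mouse pDCs, and the surface marker with the highest level per length. Each holds the 250 bases before the start of the gene in RefSeq on GRCm38.p6, 5′ to 3′ on the strand of the gene. Capitals mark matches to the E-box (CANNTG) and to the core of an interferon-stimulated response element (GAAANNGAAA), searched on both strands.
Spib, chr7:44532072-44532321, minus strand: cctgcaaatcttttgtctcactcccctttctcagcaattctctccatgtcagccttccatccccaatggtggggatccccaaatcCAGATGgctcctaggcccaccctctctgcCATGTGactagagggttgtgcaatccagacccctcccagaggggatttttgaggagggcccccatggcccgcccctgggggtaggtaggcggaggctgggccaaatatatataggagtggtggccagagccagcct
Siglech, chr7:55767934-55768183, plus strand: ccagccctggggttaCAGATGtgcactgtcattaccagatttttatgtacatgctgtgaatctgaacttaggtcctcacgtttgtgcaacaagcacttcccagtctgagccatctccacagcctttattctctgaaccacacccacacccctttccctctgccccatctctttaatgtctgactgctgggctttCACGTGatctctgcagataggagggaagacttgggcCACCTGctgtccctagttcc
Bst2, chr8:71537473-71537722, minus strand: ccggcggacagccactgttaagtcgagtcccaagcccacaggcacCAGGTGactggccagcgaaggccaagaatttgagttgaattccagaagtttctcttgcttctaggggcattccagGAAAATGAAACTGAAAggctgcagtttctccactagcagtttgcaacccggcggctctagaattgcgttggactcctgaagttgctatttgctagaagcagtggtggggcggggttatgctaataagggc
Windows of 7 of the 10 genes were searched, as none was at hand for Ly6d and Cox6a2 and Tcf4 was left out. All 7 held an E-box, against 66.2% of the 32851 promoter windows of the same length. Siglech had 3 E-boxes, which began at −235, −56 and −20 from the start, and Spib had 2, at −165 and −136. Bst2 had 1 E-box at −205 and 2 overlapping interferon element cores at −130 and −124, and it was the only 1 of the 7 with such a core, which 2.98% of all windows held. The PU.1 core GAGGAA, held by 23.3% of all windows, and the Ets-IRF composite GGAANNGAAA, held by 2.30%, occurred in 0 of the 7. A match is a description of letters and does not show binding.

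The libraries held from 14561583 to 15193831 counts. Counts were summed over the transcripts of each symbol, scaled by TMM to CPM (a library's counts at a common total), and put through the edgeR quasi-likelihood test. FDR values are Benjamini-Hochberg adjusted over all 12393 genes kept by the low-count filter. At FDR < 0.05, 13 of the genes tested were called, or 0.105%. The library of TopBP1 cKO replicate 2 stood apart: the chi-square per degree of freedom against the other libraries was at least 26.7, and it was at most 10.2 among the other 3. Topbp1, the targeted gene, had 1102 and 1143 counts in WT and 773 and 1279 in the cKO-labelled libraries, where the second was above both WT libraries (log2 fold change −0.20, SE 0.21, FDR 0.774 by the edgeR test). The counts cover whole transcripts, including exons that a floxed allele keeps. The gate genes Itgax, Kit and Cd24a were high in all libraries, with mean levels of 128.5, 53.7 and 368 CPM per kb in WT and 139, 43.6 and 318 in the cKO-labelled libraries.

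The pDC genes fell into a wide range of levels. In bulk libraries, fewer cells of a type and less RNA per cell cannot be told apart. Per length of merged exons, Bst2 was the highest member in WT, at 70.8 ± 2.97 CPM per kb (SD, n = 2 here and below), followed by Bcl11a at 13.8 ± 0.114. Tcf4 came to 4.18 ± 0.312, Runx2 to 3.19 ± 0.290 and Spib to 2.92 ± 0.437 CPM per kb, and of these, Runx2 and Spib overlapped between single libraries. Tcf4 has 27382 bases of merged exons, many from alternative ends, so its level per length is understated where only some are used. Siglech (1.91 ± 0.611), Ccr9 (1.71 ± 0.409) and Ly6d (1.15 ± 0.0115 CPM per kb) lay within the range of 7 B cell genes, whose means in WT ran from 0.263 (Ebf1) to 8.01 CPM per kb (Cd22). Tcf4, Runx2 and Spib lay within that range too. Its upper end rested on Cd22 alone, as the next B cell gene, Cd79b, was at 4.07 ± 0.392 CPM per kb, near Tcf4. The neighbours Siglech and Ccr9 did not differ in this order beyond their spread. Cox6a2 was at 0.146 and Klk1 at 0.0307 CPM per kb, with at most 3 counts in each WT library.

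**Figure D1:**
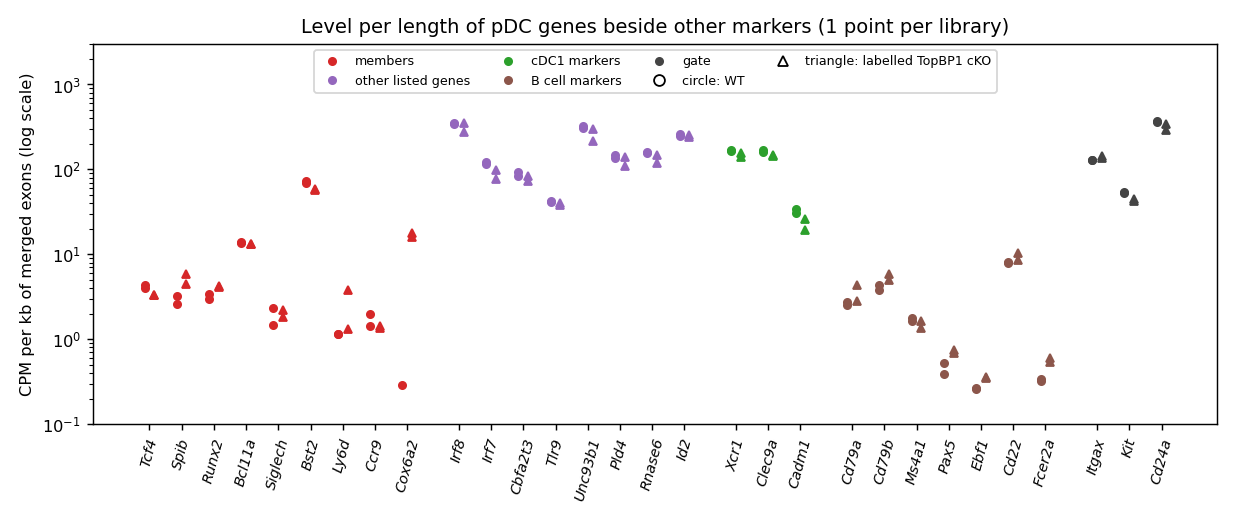
CPM per kb of merged exons (log scale) for 9 of the 10 pDC genes, for other listed genes, for cDC1 and B cell markers and for the genes of the sort gate, with 1 point per library (circles WT, triangles labelled TopBP1 cKO; values of 0 not drawn). Siglech, Ly6d, Ccr9, Tcf4, Runx2 and Spib lie within the range of the 7 B cell genes, whose upper end is set by Cd22 alone. Bst2 and Bcl11a lie above these and below the cDC1 markers Xcr1 and Clec9a, while the cDC1 marker Cadm1 lies between Bcl11a and Bst2.

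Genes that pDCs share with cDC1s were higher than most of the 10 in the same libraries. Irf8, the factor of both lineages, had 351 ± 7.25 CPM per kb in WT, Pld4 had 142 and Rnase6 158, and Irf7, the master factor of interferon induction, had 119 ± 5.61. Id2, the inhibitor on the cDC1 side, had 253 ± 9.10 CPM per kb. The cDC1 markers Xcr1 and Clec9a reached 167 and 166 CPM per kb in WT and 149 and 145 in the cKO-labelled libraries. On this scale, Siglech, Ccr9 and Ly6d lay well below the cDC1 markers in each of the 4 libraries. The genes of the gate (CD11c, CD117 and CD24) were thus high, whereas Siglech, Ccr9 and Ly6d were counted at low levels and Bst2 lay above Kit in each library.

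**Figure D2:**
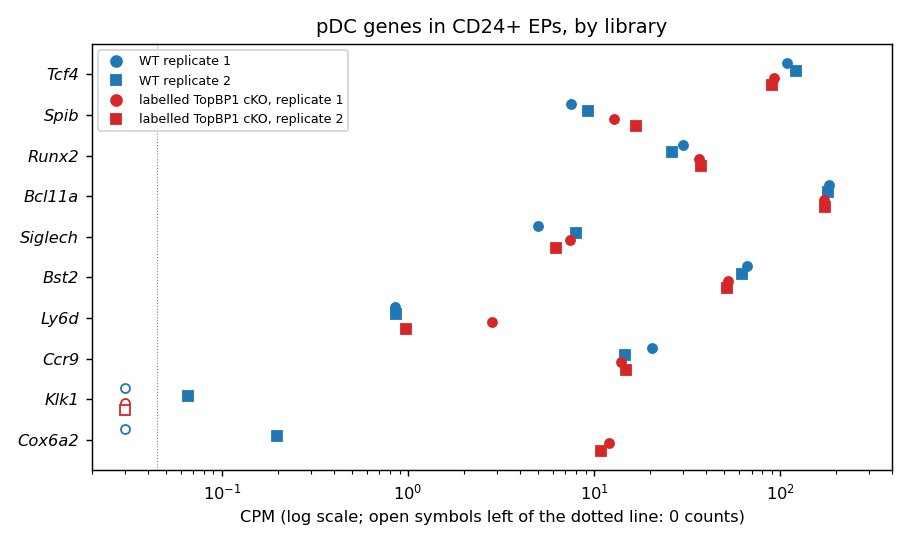
CPM (log scale) of the 10 pDC genes in each library, blue for WT and red for labelled TopBP1 cKO, with 0 counts as open symbols. The groups are far apart for Cox6a2 alone, and Tcf4, Bst2, Spib, Runx2, Ly6d and Bcl11a show small gaps between them.

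Of the 9 pDC genes chosen for their role, 8 passed the filter on low counts and 0 reached FDR < 0.05 by the edgeR test, where the smallest FDR was 0.337. At an unadjusted P below 0.05 there were 4 of the 8, of which 2 were higher and 2 were lower in the cKO-labelled libraries, against 10.7% of all genes tested. Both cKO-labelled libraries lay above both WT libraries for 3 of the 8 and below for 3, where 22.8% and 20.8% of all genes did so. As the genes were chosen with earlier results of these data known, these shares are only a description. The median log2 fold change of the 8 was 0.00065, beside 0.0084 for all genes. With 2 libraries against 2, an exact permutation test of a single gene cannot go below 0.333.

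Among the 4 transcription factors, values went both ways. Tcf4 had 1536 and 1823 counts in WT and 1402 and 1392 in the cKO-labelled libraries. These are 114.6 ± 8.54 and 91.0 ± 1.42 CPM, and both of the latter libraries were below both WT libraries. The log2 fold change was −0.33 (SE 0.12, 95% interval −0.61 to −0.055, FDR 0.389 by the edgeR test).

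Spib counted 106 and 140 in WT and 194 and 258 in the cKO-labelled libraries. The level was 8.38 ± 1.25 against 14.7 ± 2.79 CPM, and the groups did not overlap. The log2 fold change came to 0.81 (SE 0.23, 95% interval 0.28 to 1.34), and it had the smallest FDR of the 8 genes, 0.337 by the edgeR test.

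Runx2 counted 424 and 398 in WT and 555 and 581 in the cKO-labelled libraries, again without overlap. The log2 fold change was 0.39 (SE 0.14, FDR 0.391 by the edgeR test). Supt3, which overlaps Runx2 in RefSeq, had 385 and 458 counts in WT and 413 and 286 in the cKO-labelled libraries. Whether reads of Supt3 entered the Runx2 count was not tested.

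Bcl11a was the steadiest of the 4. It counted 2588 and 2732 in WT and 2625 and 2695 in the cKO-labelled libraries, with a log2 fold change of −0.069 (95% interval −0.33 to 0.19, FDR 0.864 by the edgeR test). After scaling, both of the latter libraries were just below both WT libraries. Log2 fold changes within that interval cannot be told apart with these libraries, and the interval is not a limit of detection.

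Without TopBP1 cKO replicate 1, 3 of these factors were called, Spib with an FDR of 0.00131, Runx2 with 0.0457 and Tcf4 with 0.0474 by the edgeR test. That fit, which rests on TopBP1 cKO replicate 2 as the lone library of its group, also called 2625 of all genes, or 20.5%. The log2 fold changes with 1 library left out stayed between 0.59 and 0.99 for Spib, 0.29 and 0.49 for Runx2 and −0.41 and −0.27 for Tcf4.

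The surface markers held no called gene either. Bst2 had 931 and 937 counts in WT and 802 and 803 in the cKO-labelled libraries. Its 65.8 and 62.0 CPM in WT lay above the 52.6 and 51.9 CPM of the latter (log2 fold change −0.29, SE 0.12, FDR 0.463 by the edgeR test). Irf7, which like Bst2 is induced by interferon, is described with the other regulators further on.

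Siglech counted 71 and 120 in WT and 113 and 96 in the cKO-labelled libraries, and the groups overlapped. The log2 fold change of 0.070 (95% interval −0.61 to 0.75, FDR 0.960 by the edgeR test) changed sign without WT replicate 1 (−0.22) and without TopBP1 cKO replicate 1 (−0.067). Values within this interval cannot be told apart with these libraries, and it is not a limit of detection.

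Ccr9 counted 290 and 220 in WT and 211 and 228 in the cKO-labelled libraries. The groups overlapped, with a log2 fold change of −0.29 (95% interval −0.79 to 0.20, FDR 0.666 by the edgeR test). It was −0.027 without WT replicate 1, so the difference rested on that library.

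Ly6d had few counts, 12 and 13 in WT and 43 and 15 in the cKO-labelled libraries. Replicate 1 of the latter stood alone, and replicate 2 was near WT. The log2 fold change of 1.14 (SE 0.59, FDR 0.541 by the edgeR test) dropped to 0.18 without TopBP1 cKO replicate 1. Markers of T cells were highest in the same library: Cd3g had 13 and 13 counts in WT and 41 and 24 in the cKO-labelled libraries, and the summed list of 6 T cell genes had 66, 60, 238 and 93 counts. The part of other cells in the Ly6d count was not tested.

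Klk1 had 1 count, in WT replicate 2, and 0 in the other 3 libraries, so it was not tested. Of its stretches of 31 bases, 40.5% occur in other genes, most of them in Klk1b5. Of 18 listed paralogs, 17 were at 0 in all libraries, so that no large share of counts lay with a near-identical gene.

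**Figure D3:**
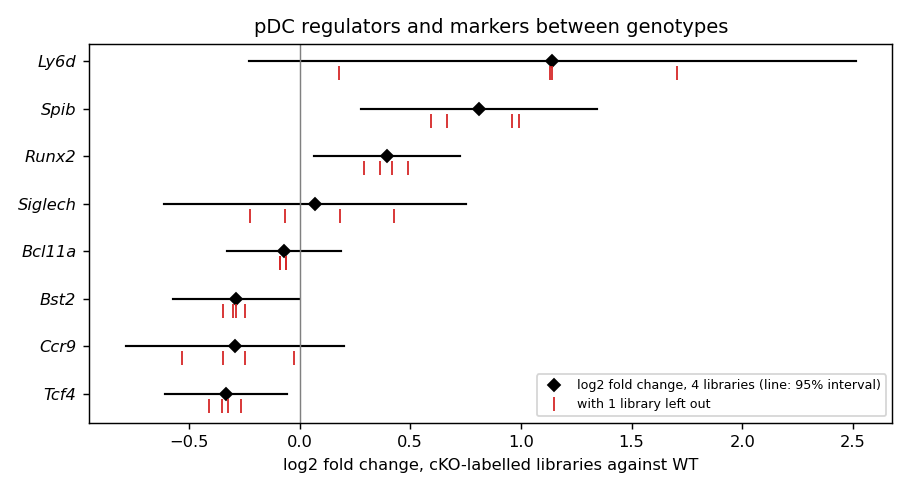
Log2 fold change of the 8 pDC genes tested, cKO-labelled libraries against WT, with 95% intervals (lines) and the values with 1 library left out (red ticks). Siglech crosses 0 when single libraries are left out, and Ly6d spans 0.18 to 1.71.

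Cox6a2 had 0 and 3 counts in WT and 183 and 168 in the cKO-labelled libraries. These counts chose the gene, so they are given as a description with no test. The level was 12.0 and 10.9 CPM in the cKO-labelled libraries, or 16.8 ± 1.19 CPM per kb, above the level per length of Spib, Runx2, Siglech and Ccr9 in the same libraries. Summed over libraries, 351 counts stood against 3.

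Some of the other listed isoforms of cytochrome c oxidase subunits had few counts or none. Cox7a1 had 0 and 2 counts in WT and 3 and 5 in the cKO-labelled libraries, Cox8b had 0 in all, and Cox4i2 had 3 and 0 against 2 and 0. Cox6b2 was counted in both groups, with 32 and 46 in WT and 49 and 39 in the cKO-labelled libraries. The 6 isoform genes that passed the filter had log2 fold changes with a median of 0.030, and 0 of them were called. Cox6a1, the common isoform of the same subunit, had 136 and 134 CPM per kb in the 2 groups.

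A count of at most 5 in each WT library and at least 50 in each cKO-labelled library was found for 4 genes, Cox6a2 among them, and the reverse pattern for 0. The other 3 were Gm14296, with 1 and 0 counts in WT and 58 and 90 in the cKO-labelled libraries, Gm39091, with 2 and 3 against 54 and 89, and Plcb1, which encodes a phospholipase C beta and had 2 and 4 against 50 and 66. These genes were picked by the pattern itself, and it says nothing of a shared function.

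One of them, Gm39091, is the next gene to Cox6a2 in RefSeq order. On the same side followed Itgad, an integrin alpha chain gene, with 15 and 20 counts in WT and 86 and 158 in the cKO-labelled libraries (log2 fold change 2.72, FDR 0.103 by the edgeR test). Itgax, the gene of CD11c, had 8776 and 9285 counts against 10511 and 10034 (log2 fold change 0.12, FDR 0.775), and Itgam, the gene of CD11b, 305 and 253 against 672 and 1201 (log2 fold change 1.67, FDR 0.153). Gm39091, picked by its counts, is given with no P value, and its fitted value and SE are drawn in the figure only as a description. On the other side the next 4 genes with counts, 9130023H24Rik, Armc5, Tgfb1i1 and Rusf1, had log2 fold changes of −0.26, −0.17, −0.53 and 0.02. The 9 tested genes more than 4 places away ran from −0.18 to 0.20, and 0 of them had an unadjusted P below 0.05. The CD11c-cre transgene is carried by one group only, and its part in the counts around Itgax was not tested. CD11b is also the study's marker of cDC2s, and the part of other cells in the Itgam counts was not tested either.

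**Figure D4:**
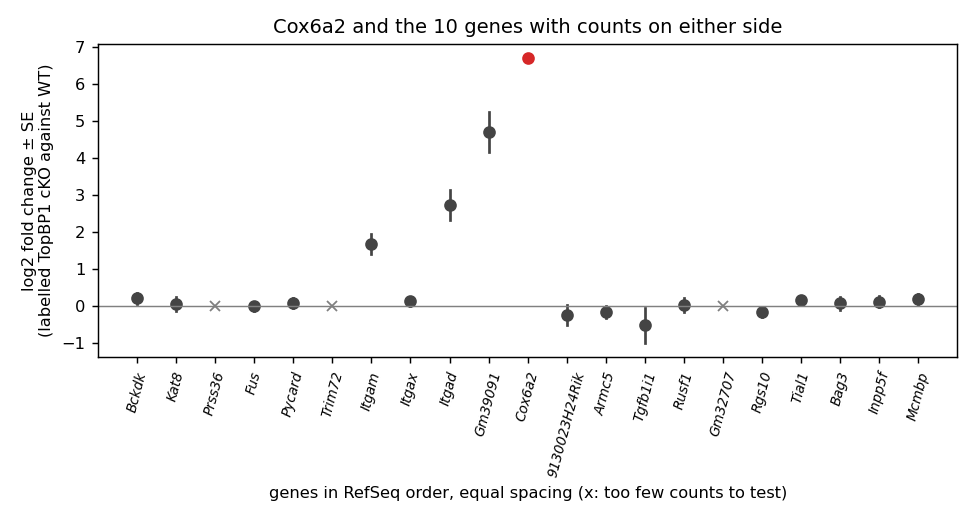
Log2 fold change ± SE, cKO-labelled libraries against WT, of the genes with counts on either side of Cox6a2 (red, its fitted value without an error) in RefSeq order with equal spacing. Itgam, Itgad and Gm39091 lie above 1, Itgax near 0, and the genes farther out near 0.

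The 10 symbols had 113 transcript entries, of which 49 had a count and 13 had one in all 4 libraries. A further 17 were counted in 1 library only, 3 in both WT libraries only and 6 in both cKO-labelled libraries only. How reads that fit several transcripts were shared out is not given in the sources used here, and the sums over a gene depend on it less than its single transcripts do.

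Ccr9 showed this most plainly. In WT replicate 1 all 290 counts were on NM_001166625.1, and in the other 3 libraries all 220, 211 and 228 were on NM_009913.6. For Siglech, NM_178706.6 had 0 counts in both WT libraries and 88 and 81 in the cKO-labelled libraries, whereas NM_001401813.1 had 37 and 79 in WT and 0 in the latter. The sum over Siglech did not separate the groups, as given above. Spib had 0 of 6 counted transcripts present in all libraries, and its leading transcript differed between libraries.

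For Tcf4, 1 transcript led in all libraries: XM_036161053.1 held 71.5% and 65.0% of the counts in WT and 72.8% and 65.5% in the cKO-labelled libraries, and XM_006525751.5 had 0 in both WT libraries and 182 and 296 in the latter. For Bcl11a, the leading transcript differed between libraries, 7 of 13 counted transcripts were present in all of them, and XM_006514507.4 had 0 in WT and 435 and 524 in the cKO-labelled libraries. Taken as features of their own, 0 transcripts of all genes were called at FDR < 0.05 by the edgeR test. Bst2, Ly6d and Cox6a2 have 1 transcript entry each, so their counts do not depend on sharing among transcripts of the same gene. Whether reads of the overlapping gene Itgad entered the Cox6a2 count was not tested.

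**Figure D5:**
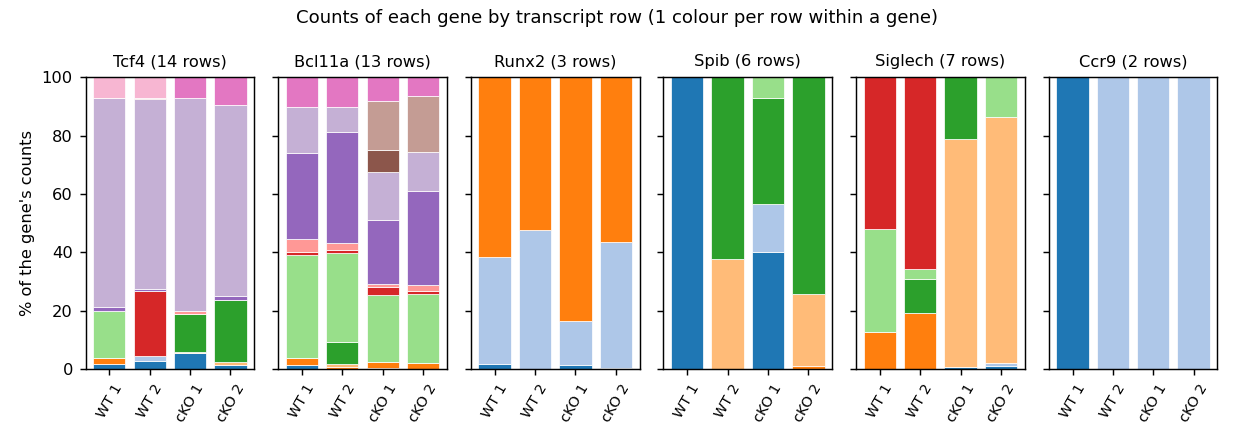
Share of the counts of Tcf4, Bcl11a, Runx2, Spib, Siglech and Ccr9 (percent, bars from 0 to 100) held by each counted transcript in the 4 libraries, with 1 colour for each transcript within a gene. Ccr9 changes transcript altogether between WT replicate 1 and the other libraries, and Siglech changes between the groups.

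Other genes of the pDC programme, in 4 lists that hold 42 genes, had 41 tested and 0 called at FDR < 0.05 by the edgeR test. At an unadjusted P below 0.05, 4 were higher and 2 were lower in the cKO-labelled libraries, and the median log2 fold change was 0.0042, beside 0.0084 for all genes. The share of all genes at that P was 10.7%. Both cKO-labelled libraries were above both WT libraries for 11 of the 41 and below for 9, beside 22.8% and 20.8% of all genes, and 21 overlapped.

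Among the 6 E proteins and their partners and inhibitors, the median was −0.066. The E proteins Tcf3 and Tcf12 had log2 fold changes of 0.06 and −0.06, and the inhibitor Id2 had −0.03. Id3, another inhibitor, had 96 and 93 counts in WT and 73 and 25 in the cKO-labelled libraries, a log2 fold change of −1.01 (FDR 0.492 by the edgeR test).

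Of the 6 other regulators, Irf7 had 6126 and 6996 counts in WT and 5591 and 4550 in the cKO-labelled libraries (log2 fold change −0.44, FDR 0.360). Irf8 overlapped between groups (log2 fold change −0.18), and Zeb2, a repressor needed for pDCs and cDC2s, had 269 and 394 against 402 and 596 counts (log2 fold change 0.53, FDR 0.474).

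The 12 genes of endosomal sensing had a median of 0.0083. Tlr7, a receptor for single-stranded RNA, had 33 and 69 counts in WT and 75 and 140 in the cKO-labelled libraries (log2 fold change 1.01, FDR 0.456). Tlr9, a receptor for CpG DNA, was more steady at 2052 and 2240 against 1997 and 2176 counts (log2 fold change −0.11). Unc93b1, which carries both receptors to endosomes, had −0.30.

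Of the 18 other markers, 17 were tested, with a median of 0.17. Lifr, the receptor of leukemia inhibitory factor, had 446 and 386 counts in WT and 258 and 216 in the cKO-labelled libraries (log2 fold change −0.88, SE 0.18, FDR 0.307). Epha2, an ephrin receptor, had 7 and 1 against 30 and 82 (log2 fold change 3.68, SE 0.80, FDR 0.307), and its counts in the latter libraries differed widely. Klra17 had 21 and 26 against 50 and 59 counts and Mzb1, a chaperone of secretory cells, 7 and 16 against 46 and 20.

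Markers of some other cells differed between the groups and stand beside these values. Their lists too were chosen with earlier results of these data known, so their counts are only a description. Of 8 macrophage genes, 6 were tested and 0 were called by the edgeR test. Their median log2 fold change of 0.025 stood for genes that went both ways. Both cKO-labelled libraries were above both WT libraries for 2 of the 6 and below for 3, and 1 overlapped. C1qb had 16 and 23 counts in WT and 3 and 7 in the cKO-labelled libraries, and Csf1r had 275 and 342 against 456 and 517. The summed CPM of 10 neutrophil genes was 800 and 755 in WT and 2221 and 2251 in the cKO-labelled libraries, with 10 of 10 genes higher in both libraries and 6 called, beside 22.8% and 0.105% of all genes. The 7 B cell genes used had a summed level of 70.1 and 66.2 CPM in WT and 79.1 and 83.9 in the cKO-labelled libraries, with 6 of 7 above both WT libraries and 0 called by the edgeR test, also at an unadjusted P below 0.05. Cd22 alone held 40.8 and 40.0 CPM of this sum in WT and 43.5 and 52.1 in the cKO-labelled libraries. Of the 7 B cell genes, Cd79a had 56 and 55 against 97 and 63 counts and Ms4a1 had 154 and 153 against 155 and 129, so neither of these was at 0. B cells express Spib and Bcl11a too, and the part of B cells, T cells or neutrophils in the counts of the pDC genes was not tested.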

How the data were processed

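Bulk RNA-seq of 4 libraries of CD24+ splenic EPs was used, 2 per genotype. The authors deposited whole-number estimated counts per transcript, unscaled, with RefSeq accessions and gene symbols. The submitters' processing notes name GRCm39, GATK, fastp, STAR and Salmon, with no role or version. Counts were summed per symbol. Entries without an accession carry a gene symbol, held 3.03% to 4.86% of a library's counts and were kept under that symbol. Genes passing filterByExpr were fitted with edgeR 4.0.16 (TMM, glmQLFit, glmQLFTest), the genotypes alone in the model, and the common dispersion was 0.0230. R 4.3.3, DESeq2 1.42.0, limma 3.58.1, Python 3.11 and random seed 11 were used, and the fit was tested on simulated data. Totals of about equal size gave all libraries a like counting error, though TopBP1 cKO replicate 2 stood apart, and 0 counts allow up to 3. Since reads are not separate molecules, this limit holds only counting error. The intervals of the log2 fold changes come from the edgeR fit, which also includes the spread between libraries. The reference, GENCODE M21 and RefSeq GRCm38.p6, is an older build than that of the files, and served for names, order, lengths and sequences. Levels per kb divide CPM by merged exon length.

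The members and lists were chosen with earlier results of these data known. By rule, the text could name all members, any gene of a list where that list is described, the 10 genes with counts on either side of Cox6a2, up to 8 genes per direction with its pattern, and Topbp1. Supt3 and Klk1b5 fall outside it and were named for overlap or shared sequence. One B cell marker is not reported here. Alternatives are given with the limits.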

Additional observations from a re-analysis of the deposited data

How the results depend on the processing

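The number of genes called at FDR < 0.05, 13 in the reported fit, was 13 with DESeq2 size factors and with limma-voom, 9 with upper quartile normalization and with at least 10 counts in every library, 19 with no filter, 0 with each transcript as its own feature, 137 by the Wald test of DESeq2, 234 by the likelihood ratio test of edgeR, and it ran from 1 to 2625 with 1 library left out. With 1 library left in a group, that library is assumed to vary like the other group. The number of pDC genes called among the 9 was 0 in the reported fit and under each alternative except without TopBP1 cKO replicate 1, and ran from 0 to 3 with 1 library left out. The number of the other 42 pDC genes called, 0 in the reported fit, was 2 by both of these tests (Epha2 and Lifr), and from 0 to 17 with 1 library left out, the 17 without TopBP1 cKO replicate 1. With 1 library left out, the log2 fold change of Siglech ran from −0.22 (without WT replicate 1) to 0.43 (without WT replicate 2) and was also below 0 without TopBP1 cKO replicate 1 (−0.067). With each transcript as its own feature, that of Siglech was 9.37 (FDR 0.558 by the edgeR test) and that of Ccr9 changed sign (0.98), where the leading transcript differs between libraries. The fitted value of Cox6a2, which depends on the prior count, moved to 5.79 without WT replicate 1 and 10.4 without WT replicate 2, and could not be had with at least 10 counts in every library. Of 104 values for the 8 members tested under these alternatives, 98 kept direction and side of the threshold, though not always size. The cause of these changes was not tested.

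The replicate numbers pair nothing that the labels name, and same-numbered deviations had a correlation of −0.0313 across genes. A fit with the replicate number as a block called 504 genes, 0 of the 9 pDC genes and 3 of the other pDC genes (Epha2, Lifr and Id3).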
